A study of Homo sapiens with 4 samples.

Results

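Neuronal and neuroendocrine genes controlled by NRSF/REST, 40 of the 20136 protein-coding genes of the GENCODE annotation, were examined for accessible chromatin. The genes were chosen by function, as known targets of the repressor, and not by a FAIRE value, though earlier results of these data were known. The sites of a gene were those of either deposited list that lay in the gene body or within 10 kb of it. These windows held 61 of the 34423 sites of the basal list and 57 of the 31219 sites of the overexpression list, which made 87 of 46937 sites when overlapping sites of both lists were merged. A promoter site overlapped the 1 kb on either side of any annotated transcript start of the gene. The site nearest to the 10 kb limit on the inside was an overexpression site 9882 bp from TUBB3, and the nearest outside was an overexpression site 10584 bp from CPLX1.

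FAIRE-seq, in which DNA free of nucleosomes is recovered from formaldehyde-fixed chromatin and sequenced, was applied to H295R/TR SF-1 cells. These cells are 1 subclone of the human adrenocortical tumour line H295R in which doxycycline induces the nuclear receptor SF-1 (NR5A1), the master regulator of steroidogenic genes. There was 1 FAIRE library from cells with basal SF-1 expression and 1 from cells overexpressing SF-1 after 3 days of doxycycline, and both conditions carry the inducible transgene. The input DNA libraries of both conditions were not analysed here. With 1 library per condition, differences between conditions could not be tested. Intervals are exact 95% binomial intervals that cover counting error only, and genes and sites are not replicates. The depth of the libraries is unknown, and the lack of a call is no evidence that chromatin was closed. Of 12 adrenocortical markers, 10 had a basal site within 10 kb and 9 an overexpression site. Of 10 markers of the chromaffin cells of the adrenal medulla, 2 and 1 had one, and of 6 neuronal markers 3 and 3. The shares over all coding genes were 70.2% for a basal site and 71.1% for an overexpression site.

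NRSF/REST is a zinc finger repressor that is present in most cells outside the nervous system and binds a long DNA element called RE1. Bound to RE1 it recruits SIN3 and CoREST complexes, whose histone deacetylases and demethylases keep neuronal genes silent. Its targets encode the machinery of regulated secretion, ion channels, transmitter receptors and neuronal cytoskeleton. Endocrine cells share parts of this secretory programme.

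To see which RE1 elements of these genes lay in accessible chromatin, the 21-letter RE1 consensus was searched on both strands of the reference sequence. Of the 26 matches with up to 3 mismatches in the windows of the 40 genes, 9 lay in a FAIRE site of either list (34.6%, interval 17.2 to 55.7). The background was 60 of the 461 matches within 10 kb of any coding gene, or 13.0%, a set that includes the members. Matches of the members were closer to the consensus, with up to 2 mismatches in 18 of 26, against 184 of 461 at coding genes. Among those, 7 of 18 lay in a site (38.9%, 17.3 to 64.3), against 18.5% at coding genes, which is inside the interval. Matches of the members lay in sites of both lists in 3 cases, of the basal list alone in 2 and of the overexpression list alone in 4. Taken by list, 5 of 26 were in basal sites (19.2%, 6.55 to 39.4; 8.46% at coding genes) and 7 of 26 in overexpression sites (26.9%, 11.6 to 47.8; 7.59%). Another 4 matches of the members with 4 mismatches were in a site, 2 of them at NPAS4, which made 13 matches from 10 genes. The elements in sites are shown here, except that last pair, each 5′ to 3′ along the strand that matches, with the 21 matched letters in capitals and 4 flanking bases on either side.
CHRNB2, 0 mismatches, chr1:154540430-154540450, plus strand: cggcTTCAGCACCACGGACAGCGCCccac
CHGB, 2 mismatches, chr20:5892350-5892370, plus strand: gccgGTCAGCACCGCGGACAGCGCCagcc
GRIA2, 2 mismatches, chr4:158141540-158141560, minus strand: gcctTTCAGCACCGAGGACAGCGCCtcgc
NPAS4, 2 mismatches, chr11:66189222-66189242, minus strand: agccGTCAGCACCATGGGCAGCGCCccga
NPAS4, 2 mismatches, chr11:66189262-66189282, minus strand: tgggTTCAGAACCATGGACAGAGCCatac
SYN1, 2 mismatches, chrX:47479469-47479489, minus strand: cagcTTCAGCACCGCGGACAGTGCCttcg
VGF, 2 mismatches, chr7:100808840-100808860, plus strand: cggcTTCAGCACGCTGGACAGCGCCcgcg
CHGA, 3 mismatches, chr14:93380588-93380608, plus strand: gtagTTCAGGACCACGGACAGCAGCctgc
SYP, 3 mismatches, chrX:49056581-49056601, minus strand: gcgcTCCAGCACCGTGGACAGAGCCcgcc
RUNDC3A, 4 mismatches, chr17:42385976-42385996, plus strand: ccggCTCAGCACCTCGGAGAGCTCCctcc
SNAP25, 4 mismatches, chr20:10200320-10200340, plus strand: acctTTCAGCACCGGGGACAGCGGTccgg

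The 4 matches of the members with 1 mismatch had no site over them in either list. They are shown for comparison and were chosen after the values were seen.
CHGA, 1 mismatch, chr14:93389868-93389888, plus strand: agttTTCAGCACCGCGGACAGCGCCtccg
GRIN1, 1 mismatch, chr9:140033712-140033732, plus strand: ccgcTTCAGCACCGCGGACAGCGCCggcc
HCN2, 1 mismatch, chr19:591670-591690, plus strand: cggtTTCAGCACCACGGACAGCGCGccgg
UNC13A, 1 mismatch, chr19:17792562-17792582, minus strand: agcaTTCAGCACCGTGGACAGCGCCtgcc
The nearest site lay 9169 bp away for CHGA, 9313 bp for GRIN1, 3171 bp for HCN2 and 1313 bp for UNC13A. The element of CHGA, which encodes chromogranin A, lay in an intron 170 bp from the nearest annotated start, and that of GRIN1, an NMDA receptor subunit, lay in an exon without coding sequence 95 bp from a start. Over the whole genome, 4 of 38 matches with 1 mismatch lay in a site (10.5%, 2.94 to 24.8), 36 of 203 with 2 mismatches (17.7%, 12.7 to 23.7), 33 of 426 with 3 (7.75%, 5.39 to 10.7) and 55 of 1460 with 4 (3.77%, 2.85 to 4.88).

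NPAS4, an activity-induced neuronal transcription factor, was the member with most RE1 matches in sites. A run of 5 matches lay in an intron at spacings of 38 to 43 bp, of which 2 had 2 mismatches and 3 had 4. The run is printed whole from the minus strand of chr11:66189175-66189362, with the matches in capitals, because a single FAIRE site of each list lay inside it. No annotated exon overlapped it.
NPAS4 run: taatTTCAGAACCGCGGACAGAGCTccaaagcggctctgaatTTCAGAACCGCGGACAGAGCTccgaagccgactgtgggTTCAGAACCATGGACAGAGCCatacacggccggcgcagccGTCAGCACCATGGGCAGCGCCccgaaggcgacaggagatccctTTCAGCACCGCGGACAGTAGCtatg
The overexpression site (chr11:66189201-66189349, 149 bp) touched 4 of these matches and the basal site (chr11:66189251-66189349, 99 bp) touched 3.

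RE1 matches were common at these genes by any measure of sequence, which is a property of the reference and not of the cells. At least 1 match with up to 3 mismatches occurred within 10 kb of 23 of the 40 genes (57.5%), against 2.66% of all coding genes and 2.47% after standardisation to the lengths of the members. With the consensus letters in reverse order and up to 4 mismatches, 0 of 40 members and 0.616% of coding genes had a match. Most matches of the members in sites lay at promoters. Within 1 kb of a start, 8 of 17 matches of the members were in a site (47.1%, 23 to 72.2), against 22.3% of 121 matches at starts of coding genes. NPAS4 gave 2 of these 8, both in the same overexpression site. In the rest of the windows, 1 of 9 matches of the members (11.1%, 0.281 to 48.2) and 33 of 340 of coding genes (9.71%, 6.78 to 13.4) were in a site. This split was made after the data were seen, and the intervals at starts overlap.

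**Figure D1:**
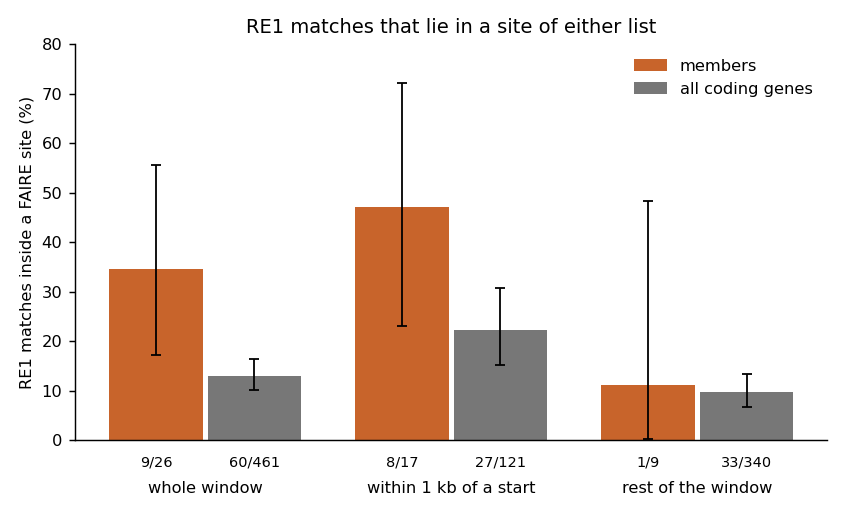
Share of RE1 matches with up to 3 mismatches that lay inside a FAIRE site of either list, in percent, for the 40 genes (orange) and all coding genes (grey), over the whole 10 kb window, within 1 kb of a start and in the rest. Error bars are exact 95% intervals and the numbers are matches in a site over all matches. The members' bar is higher over the whole window (34.6 against 13.0%), and outside promoters the bars are close (11.1 and 9.71%).

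**Figure D2:**
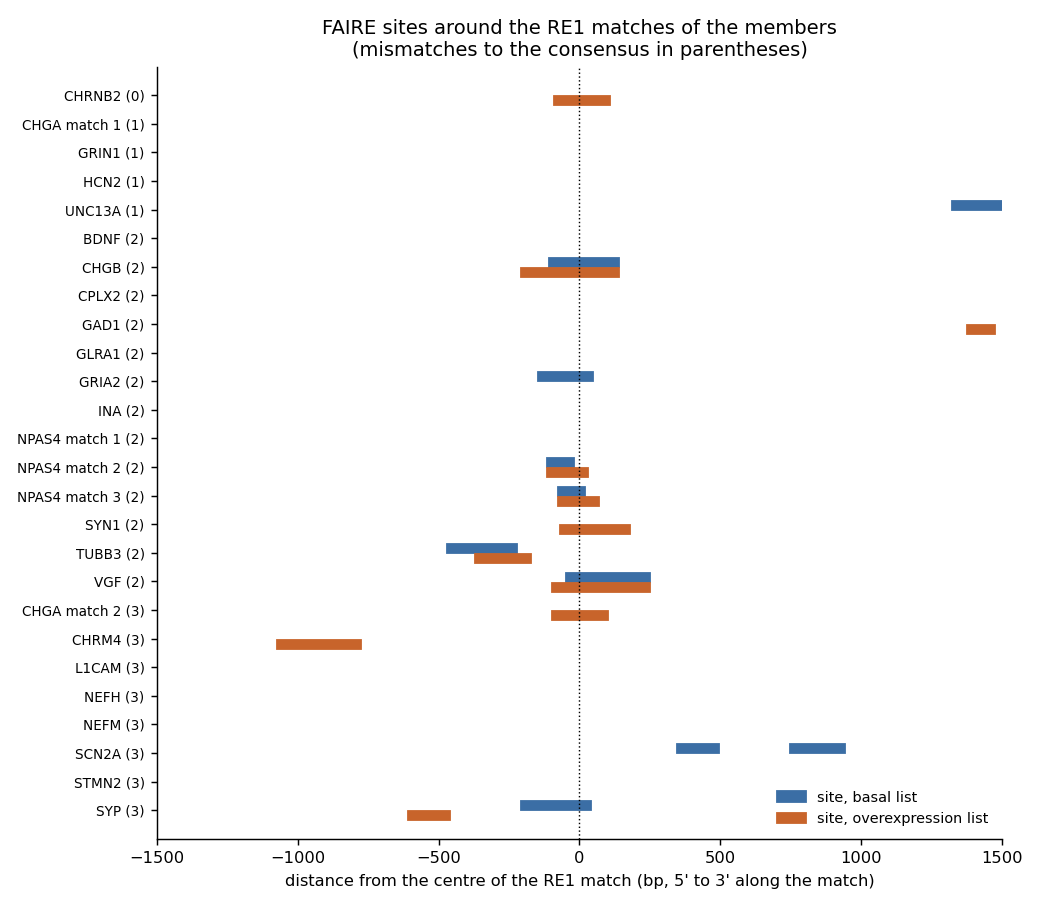
FAIRE sites of the basal list (blue) and the overexpression list (orange) around each of the 26 RE1 matches of the members with up to 3 mismatches, by distance from the centre of the match in bp. In 9 rows a bar crosses the match, and all 4 rows with 1 mismatch lack one.

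The merged sites of the members held RE1 more often than other sites. The genes were chosen as known NRSF/REST targets, so this contrast is no independent result about the sites. Within 10 kb, 72.5% of the members had a match with up to 4 mismatches in the reference sequence, against 7.52% of coding genes. A match with up to 4 mismatches was present in 10 of 87 merged sites (11.5%, 5.65 to 20.1), against 0.245% of the 33892 merged sites within 10 kb of coding genes. By class, RE1 was in 5 of 30 shared sites (16.7%), 2 of 30 that were basal-only (6.67%) and 3 of 27 that were overexpression-only (11.1%). The shared sites were those of CHGB, NPAS4, VGF, RUNDC3A and SNAP25, the basal-only sites those of GRIA2 and SYP, and the overexpression-only sites those of CHRNB2, SYN1 and CHGA. The SF-1 motif, read as CAAGGCCA or CAAGGTCA on either strand with no mismatch, was in 9 of 87 merged sites of the members (10.3%, 4.84 to 18.7) and in 12.6% of merged sites within 10 kb of coding genes. No site of the members in either list held both.

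In each list, the share of all coding genes with a promoter site lay inside the interval of these genes. For a promoter site in the overexpression list alone, the share of coding genes lay below the interval, except among wide sites. These intervals cover counting error only, and the conditions were not tested against each other. In the basal list 16 of 40 genes had a promoter site (40%, 24.9 to 56.7), against 46.8% of coding genes and 48.7% after length standardisation. In the overexpression list 20 of 40 had one (50%, 33.8 to 66.2), against 48.9% and 50.9%. A promoter site stood in both lists for 11 genes (27.5%, 14.6 to 43.9), against 41.7% of coding genes. It stood in the basal list alone for 5 genes (12.5%, 4.19 to 26.8), against 5.05%. It stood in the overexpression list alone for 9 genes (22.5%, 10.8 to 38.5), against 7.19%. When sites narrower than the pooled median were left out, this last share came to 4 genes (10%, 2.79 to 23.7), against 7.71% of coding genes. The other 15 genes (37.5%) had no promoter site, against 46.0%. When sites within 1 kb of the start of another coding gene were left out, the difference from standardised coding genes changed sign. It went from -8.66 to 4.43 percentage points in the basal list and from -0.865 to 10.5 in the overexpression list. In the basal list it was -13.6 with the gene 5′ end alone, -11.5 at 500 bp, -3.88 at 2 kb and -12.6 with wide sites. In the overexpression list these values were -0.256, -6.19, -3.34 and -10.7. The intervals of all these differences included 0. An RE1 match with up to 3 mismatches lay within 1 kb of a start in 16 of the members. Of these, 11 had a promoter site in either list (68.8%, 41.3 to 89.0), against 14 of the other 24 (58.3%, 36.6 to 77.9), and the intervals overlap. Over all coding genes the order was the other way. There, 55 of 122 genes with such a match had a promoter site (45.1%, 36.1 to 54.3), against 54.0% of those without.

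Over the whole windows, 26 genes had a basal site (65.0%, 70.2% of coding genes) and 30 had an overexpression site (75.0%, 71.1% of coding genes). A site shared between the conditions, meaning an overlap of at least 1 bp, was present at 17 genes (42.5%, 27.0 to 59.1), against 59.6% of coding genes and 61.3% after length standardisation. A basal-only site was present at 16 genes (40%, 24.9 to 56.7) against 36.9% of coding genes, and an overexpression-only site at 20 genes (50%, 33.8 to 66.2) against 36.8%. The difference from standardised coding genes in shared sites, -18.8 percentage points, had an interval of -34.3 to -2.19. The interval included 0 with gene bodies alone (-15.8 points, -29.7 to 0.843), with a 50 kb window (-13.9, -30.5 to 0.520), without sites narrower than the pooled median (-14.1, -28.0 to 2.57) and without sites within 1 kb of another coding gene's start (-5.98, -21.1 to 10.7). The difference in overexpression-only sites, 13.2 points, came to 0.654 points when sites narrower than the median of 249 bp were left out.

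**Figure D3:**
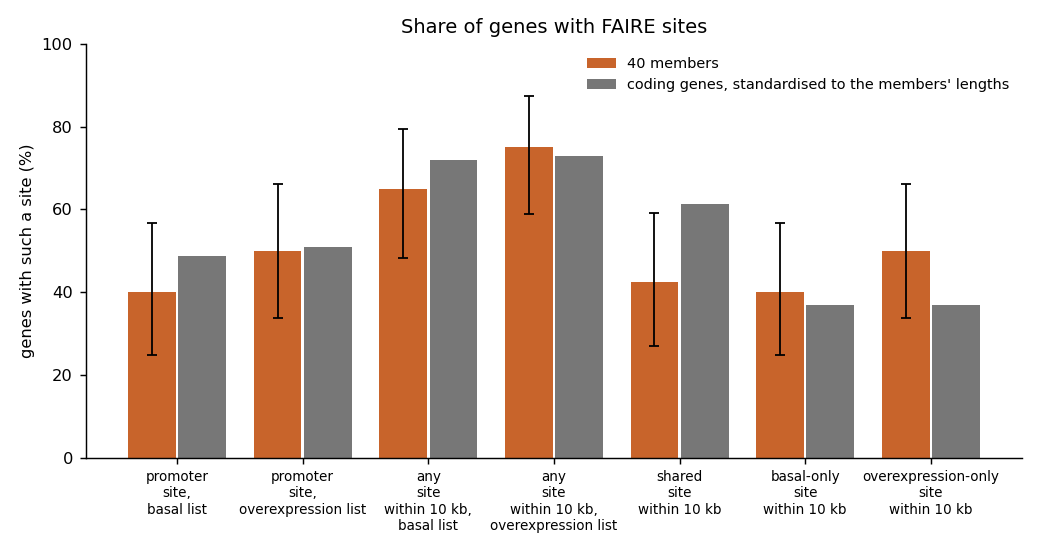
Share of genes, in percent, with a promoter site, any site, a shared site and a condition-only site, for the 40 genes (orange, with exact 95% intervals) and for coding genes standardised to the members' lengths (grey). The interval of the members leaves out the grey bar for shared sites alone (42.5 against 61.3%), a difference whose interval includes 0 under 4 of 7 alternatives.

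Of the 61 basal sites 31 were shared (50.8%, 37.7 to 63.9), against 58.1% of basal sites within 10 kb of coding genes. Of the 57 overexpression sites 30 were shared (52.6%, 39.0 to 66.0), against 62.9%. Standardised to the width and GC content of the members' sites, coding genes gave 63.0 and 63.1%, inside both intervals, and standardised to GC content alone they gave 65.7 and 67.6%, above both. There were 27 overexpression-only and 30 basal-only sites, a ratio of 0.900 (0.515 to 1.57), against 0.816 for sites within 10 kb of coding genes and 0.993 from GC content. Classes differed in composition, width and place in the list by peak number. The median place in the basal list was 75.9% for basal-only and 25.9% for shared sites, against 66.5 and 31.2% at coding genes. In the overexpression list it was 67.2% for overexpression-only and 19.7% for shared sites, against 66.3 and 32.6% at coding genes. The mean GC content was 48.2% in basal-only, 58.3% in overexpression-only and 62.9% in shared merged sites, and the median width was 199 bp in both condition-only classes and 324 bp in shared merged sites. A start of a member lay within 1 kb of 12 of 30 shared sites, 8 of 30 basal-only sites and 10 of 27 overexpression-only sites. A start of another coding gene lay within 1 kb of 6 shared, 1 basal-only and 4 overexpression-only sites.

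**Figure D4:**
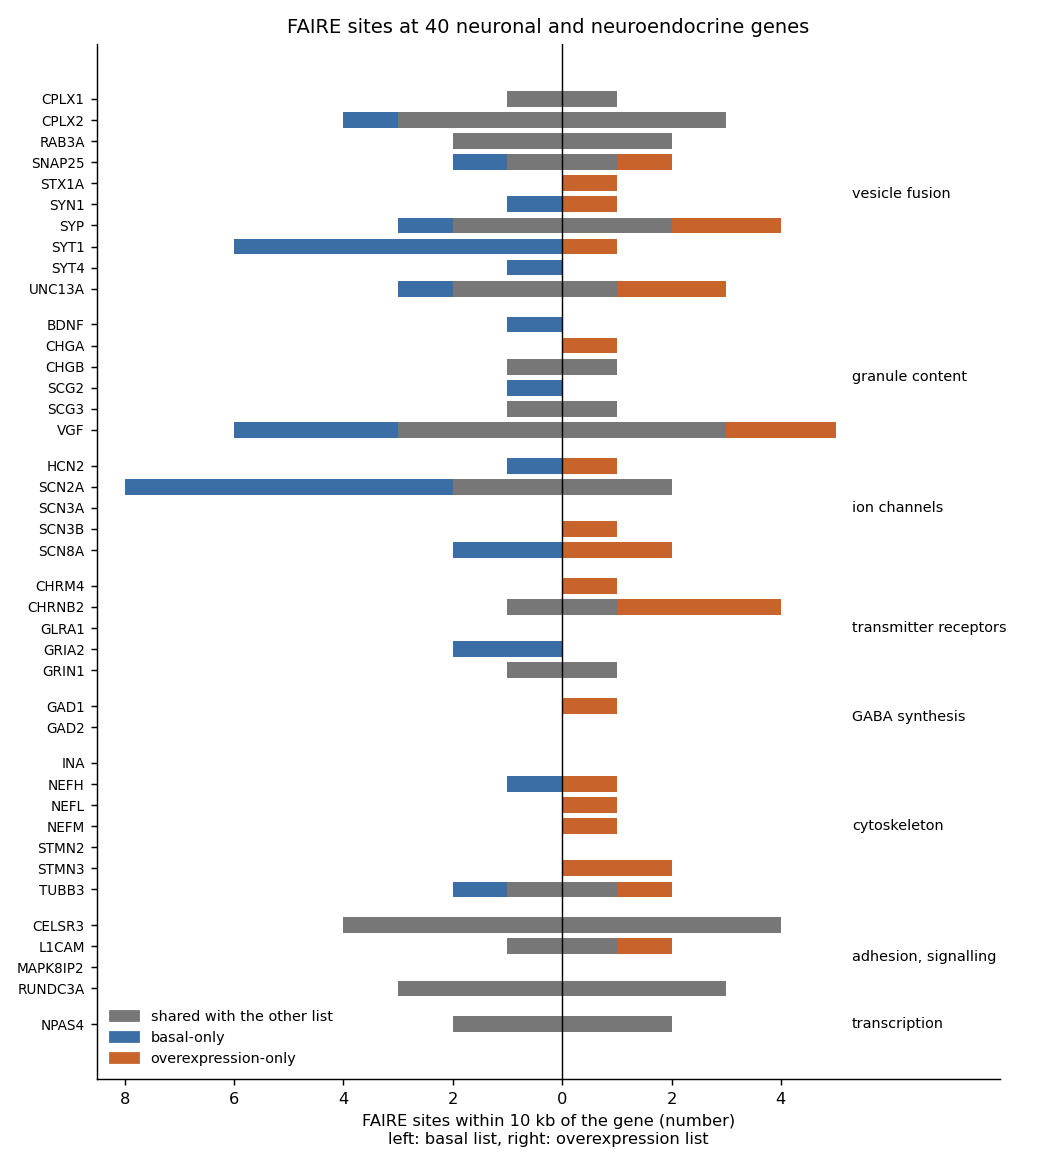
Number of FAIRE sites within 10 kb of each of the 40 genes, grouped by role, with the basal list to the left and the overexpression list to the right of 0. Grey is shared, blue basal-only and orange overexpression-only, and SCN2A with 8 basal sites has the longest bar while 6 genes have none.

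The genes of synaptic vesicle fusion, which bring vesicles to the membrane and release their content, had sites in either list at 10 of 10 members. Over all roles this held for 34 of the 40 genes (85%, 70.2 to 94.3), against 77.6% of coding genes. The promoters of 6 vesicle fusion genes had a basal site (46.8% of coding genes) and those of 5 an overexpression site (48.9%). RAB3A, a vesicle GTPase, had the widest promoter site of the members, which was shared, 599 bp in the basal list (chr19:18314751-18315349) and 799 bp in the overexpression list (chr19:18314751-18315549). SNAP25, a SNARE of the plasma membrane, had a shared site of 299 bp in each list (chr20:10200101-10200399 and chr20:10200051-10200349) that held its RE1 match. CPLX2, a complexin that clamps SNARE complexes, had shared sites at 2 of its starts (basal chr5:175223901-175224249 and chr5:175288551-175288749), and neither touched its RE1 match, 10142 bp from the nearest site. SYP, the vesicle protein synaptophysin, had a basal-only site over its start and RE1 (chrX:49056551-49056799) and an overexpression-only site upstream of it (chrX:49057051-49057199), so its promoter was called in both lists through different sites. SYN1, the vesicle phosphoprotein synapsin I, had a promoter site in the overexpression list alone (chrX:47479301-47479549), and its RE1 match was inside it. The calcium sensor SYT1 had 6 basal-only sites and 1 overexpression-only site, and its promoter site was in the basal list alone (chr12:79258401-79258549). SYT4, another synaptotagmin, had a single basal-only site (chr18:40851901-40852099). CPLX1, STX1A and UNC13A had at most 3 sites in either list and no promoter site.

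The genes of dense-core granule content, which encode hormones and granins stored for regulated release, had sites at 6 of 6 members, beside the same 77.6% of coding genes. CHGB, chromogranin B, had 1 shared promoter site, 249 bp in the basal list (chr20:5892251-5892499) and 349 bp in the overexpression list (chr20:5892151-5892499), over its RE1 match. VGF, a granin-like neuropeptide precursor, had 6 basal and 5 overexpression sites, of which 3 were shared in each list. The shared promoter site of VGF (basal chr7:100808801-100809099, overexpression chr7:100808751-100809099) lay over its RE1 match, and another shared site was within 1 kb of the start of the neighbouring gene AP1S1. SCG3, secretogranin III, had a shared promoter site (basal chr15:51973601-51973849) and no RE1 match with up to 4 mismatches. SCG2, secretogranin II, had a single basal-only site of 99 bp at its promoter (chr2:224467051-224467149). CHGA had no promoter site, and its single site was overexpression-only, upstream of the gene (chr14:93380501-93380699), where its RE1 match with 3 mismatches lay at -8897 bp from the start. BDNF, a neurotrophin, had a single basal-only intronic site 16974 bp from its RE1 match.

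Ion channels had sites at 4 of 5 members (77.6% of coding genes). SCN2A, a brain sodium channel, had 8 basal sites and 2 overexpression sites, and 6 of the basal sites were basal-only. It had 3 basal promoter sites. A pair of them (chr2:166095351-166095499 and chr2:166095751-166095949) had the same nearest annotated start and was basal-only, and the other, at a start farther downstream (chr2:166150251-166150549), was shared. SCN3A, its neighbour, had no site, and the windows of this pair were the only ones that overlapped. SCN3B, a sodium channel beta subunit, had a single overexpression-only promoter site (chr11:123526151-123526399). SCN8A and the pacemaker channel HCN2 had condition-only sites alone, with none at a promoter.

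Transmitter receptors had sites at 4 of 5 members (77.6% of coding genes), and all 5 had an RE1 match with up to 3 mismatches. CHRNB2, the beta 2 subunit of nicotinic acetylcholine receptors, carried the single match of the members with no mismatch inside an overexpression-only site of 199 bp (chr1:154540351-154540549), 129 bp from the start in an exon without coding sequence. Its other sites, 1 shared and 2 overexpression-only, lay within 1 kb of the starts of the neighbours UBE2Q1 and ADAR. GRIA2, an AMPA receptor subunit, had 2 basal-only sites and no overexpression site, and the one at a promoter held its RE1 match (chr4:158141501-158141699). CHRM4, a muscarinic receptor, had a single overexpression-only promoter site (chr11:46413201-46413499), 766 bp from its RE1 match. GRIN1 had 1 shared site, upstream of the gene, and GLRA1, a glycine receptor subunit, had none. Of the enzymes of GABA synthesis, GAD1 had an overexpression-only promoter site of 99 bp (chr2:171669401-171669499) and GAD2 had no site.

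The cytoskeleton genes had basal promoter sites at 1 of 7 members and overexpression promoter sites at 4 of 7, against 46.8 and 48.9% of coding genes. The neurofilament subunits NEFL (chr8:24814101-24814249), NEFM (chr8:24772401-24772549) and NEFH (chr22:29877051-29877299) each had an overexpression-only promoter site, 149 bp wide for the first pair and 249 bp for NEFH. NEFL and NEFM had no other site, and NEFH had 1 basal-only site outside the promoter. STMN3, a stathmin that destabilises microtubules, had an overexpression-only promoter site (chr20:62289851-62289949) that was also within 1 kb of the start of RTEL1. TUBB3, a neuronal tubulin, had a basal-only promoter site of 99 bp (chr16:89988951-89989049) and a shared intronic site whose edge was 163 bp from its RE1 match. STMN2 and the intermediate filament gene INA had no site in either list.

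Of the genes of adhesion and signalling, CELSR3, an adhesion receptor of the cadherin family, had 4 sites in each list, all shared, and 2 of them were at its promoter (basal chr3:48700251-48700449 and chr3:48701051-48701349). Another of them lay within 1 kb of the start of the neighbour SLC26A6. RUNDC3A, a RAP2-interacting protein of neurons, had 3 shared sites in each list and the same promoter site in both (chr17:42385801-42386049, 249 bp), with an RE1 match inside. Another of its sites lay within 1 kb of the start of the neighbour SLC25A39. L1CAM, a neuronal adhesion molecule, had sites outside its promoter, and MAPK8IP2, a scaffold of JNK signalling, had none. Over all roles, 6 members had no site, 4 had basal sites without an overexpression site and 8 had overexpression sites without a basal site. Among all coding genes, 77.6% had a site in either list, 70.2% a basal site and 71.1% an overexpression site.

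Expression arrays of this cell line, from other samples, were used by the study to list genes that are higher after NRSF/REST knockdown, and 13 members carry such a listing. The listing pools both SF-1 dosages, with 8 members listed at both, SYP and CHRNB2 at basal SF-1 alone, and SNAP25, INA and GLRA1 under SF-1 overexpression alone. The listed members had a promoter site in either list in 8 of 13 cases and the other members in 17 of 27. Of all coding genes, 46.0% had a promoter site in neither list. One in either list was present at 54.0% of coding genes without an RE1 match at a start and 45.1% of those with one. An RE1 match with up to 4 mismatches lay in a site for 6 of the 13, namely SNAP25, SYP, CHGA, CHGB, CHRNB2 and RUNDC3A, and for 4 of the 27, namely SYN1, GRIA2, VGF and NPAS4. The share of all coding genes with such a match in a site is not given here. A match, in a site or not, occurred within 10 kb of 7.52% of coding genes. Of the 1382 matches in their windows, 7.16% lay in a site. The counts of members are a description, since the list was chosen by the study in the same cell line.

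The genes of the REST repressor machinery itself are the other genes of the pathway. Of 20 such genes, 17 had a basal promoter site (46.8% of coding genes), 15 an overexpression promoter site (48.9%) and 15 had one in both lists (41.7%), while 3 had none (46.0%). REST had a promoter site in both lists, as did HDAC1 and HDAC2, its deacetylases, KDM1A, the histone H3 lysine demethylase of CoREST, and SIN3A, its other corepressor. RCOR1, which encodes CoREST, and SIN3B had one in the basal list alone. RCOR2, KDM5C and CTDSPL had no promoter site in either list.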

How the data were processed

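FAIRE-seq of 1 basal and 1 SF-1 overexpression library of H295R/TR SF-1 cells gave 1 peak list each, grouped per the labels. The authors deposited browser tracks with start, end and a score that equals 1000 throughout. The submitters' processing notes name CASAVA 1.8 and hg19. The study's methods name ELAND mapping and CisGenome peak calling for immunoprecipitated DNA. For the FAIRE libraries the aligner, peak caller and threshold are not given in the sources used here, so depth is unknown and was not corrected for. Width was used where a stricter list was needed.

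Genes and starts came from GENCODE release 44 on GRCh37, where no nuclear site ran past a chromosome end. Sequence was read from GRCh37. Coordinates are 1-based. Members and gene lists were chosen with earlier results of these data known. Shares of all coding genes were standardised to the members' lengths in 20 bins, as a weighted mean over all genes. GC content was standardised in bins of 5 percentage points. All 40 members are accounted for. Named with positions were members with a promoter site or an RE1 match in a site, and the 3 with most sites. RE1 in sites allowed 4 mismatches and RE1 in windows 3. The scripts, run with Python 3.11.15, numpy 2.4.6, scipy 1.17.1 and pandas 2.3.3, recovered all planted matches and overlaps in simulated data. Alternatives were other promoter windows, gene windows, overlap rules, site widths and motif forms, lists of equal length, and sites at other genes' starts left out.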

Additional observations from a re-analysis of the deposited data

How the results depend on the processing

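Of 99 alternative values for 17 results, 87 stayed within the interval of the reported value, 8 moved beyond it, 4 lost an interval that left out 0 and no difference whose interval left out 0 changed sign. The share of standardised coding genes in the same setting follows each member share in parentheses. With sites at least as wide as the pooled median, members with a promoter site in the overexpression list came to 30% (40.7%), which follows from fewer sites being kept. Those with one in that list alone came to 10% (7.87%). Members with a basal-only site came to 20% (25.1%) and with an overexpression-only site to 27.5% (26.8%). The shared part of the members' basal sites came to 64.5%, and the cause was not tested. With a 50 kb window, members with a shared site came to 65% (78.9%). Those with a basal-only site came to 67.5% (61.3%) and with an overexpression-only site to 75% (61.5%), which follows from a longer window. The shared-site difference of -18.8 points came to -15.8 with gene bodies alone, -13.9 with the 50 kb window, -14.1 with wide sites and -5.98 without sites at other genes' starts, each with an interval that included 0. The basal-only difference from standardised coding genes, 3.13 points, came to -5.10 with wide sites, and the promoter differences came to 4.43 (basal list) and 10.5 (overexpression list) without sites at other genes' starts. The intervals of these 3 differences included 0, and the cause was not tested. With RE1 matches within 500 bp counted once, 32% (14.9 to 53.5) of clusters of the members lay in a site, against 12.4% at coding genes. Without SCN2A, SCN3A and the members on chromosome 8, 39.1% (19.7 to 61.5) of matches did. These forms, the split at 1 kb and the settings for promoters in the overexpression list alone were added after the data were seen. No paired analysis was possible because each condition had 1 library. The lists held no counts or heights, so no alternative for read depth could be made. A further alternative left out the last basal peak numbers, so that both lists had equal length. There the shared-site difference was -17.6 points (-33.0 to -0.968). The ratio of overexpression-only to basal-only sites was 1.08 (0.609 to 1.91).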
